A study of Mus musculus with 3 samples.

Results

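Of the strongest accessible regions in mouse mesenchymal stem cells labelled immobilized at day 7 after injury, 1853 had no peak summit within 500 bp in either other library of the study. They were chosen by peak score and by distance to other summits, among the 30000 best-scoring of 67404 ATAC-seq peak summits in the day 7 immobilized list on chromosomes 1 to 19. A summit was taken if neither the whole day 7 non-immobilized list (47912 summits) nor the whole day 0 list (51722 summits) held a summit within 500 bp. Windows reaching 250 bp to either side of a summit were merged where they touched. By this rule 1853 of 29884 strong immobilized regions were called only in the immobilized library, 6.20% of them. The same rule gave 740 of 29717 strong regions (2.49%) for the non-immobilized library and 1240 of 29834 (4.16%) for day 0.

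The cells (MSC) were studied in heterotopic ossification, in which bone forms in soft tissue. The groups were immobilized at day 7 after injury, non-immobilized at day 7 after injury and day 0 before injury, with 1 library each. The strain, sex and age of the animals, the kind of injury, the number of animals pooled and the way the cells were isolated are not stated in the labels. With 1 library per group there is no replicate error and no p-value. Intervals are exact 95% binomial intervals and cover counting error only. The immobilized, non-immobilized and day 0 libraries held 143818952, 173029378 and 176119937 read pairs, with duplicates at 43.4%, 42.0% and 60.2% and alignment rates of 92.5%, 89.9% and 90.9%. The immobilized list was the longest, and its summit ranked 30000 had a score of 11.8, against 7.61 in the non-immobilized list and 9.10 at day 0. The part that depth and list length had in the counts was not tested. Where a list has no summit, none passed its cutoff, and the DNA need not have been closed. Unless stated otherwise, the summits of a gene are those with that gene as the nearest, by either gene end and up to 50 kb away. A summit nearer to a neighbouring gene is not counted. Of 30 mesenchymal progenitor and fibroblast genes, 30, 27 and 28 had at least 1 summit in the immobilized, non-immobilized and day 0 lists. So did 21, 21 and 18 of 21 endothelial genes and 15, 15 and 15 of 15 smooth muscle and pericyte genes, so having a summit does not identify the cell type. Pdgfra, a receptor that marks mesenchymal progenitors, had 6, 5 and 8 summits, and the limb mesenchyme factor gene Prrx1 had 7, 6 and 10.

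ATAC-seq marks DNA that a transposase can reach, mostly promoters and enhancers. Promoters of widely used genes are rich in CpG and open in most cell types, whereas enhancers and the promoters of tissue genes open in few. Epidermal cells are held together by desmosomes and built on keratin filaments, and their identity is set by factors such as p63, GRHL, AP-2 and ELF proteins. AP-1, a dimer of Fos and Jun proteins, binds open sites in many cells under stress or in wounds.

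The sequences below carry the main features described further on: promoters of 3 epidermal genes and of the cytokine antagonist gene Il1rn, at which a region was called only in the immobilized library, and, for contrast, 2 promoters at which the other libraries had a summit within 1 kb. Each runs from 250 bases before a RefSeq transcript start to 50 bases after it, 5′ to 3′ on the strand of the gene, from RefSeq on GRCm38.p6 (the assembly of mm10). The capitals mark matches to the AP-1 letters TGANTCA or the GRHL letters AACCNGTT. Scel, Dmkn, Sbsn and Il1rn were chosen after their values were seen. The AP-1 letters were in 17 of 61 windows like theirs, where no other list had a summit within 1 kb of the region's summit.
Scel, which encodes sciellin of the cornified envelope, chr14:103513091-103513390, plus strand: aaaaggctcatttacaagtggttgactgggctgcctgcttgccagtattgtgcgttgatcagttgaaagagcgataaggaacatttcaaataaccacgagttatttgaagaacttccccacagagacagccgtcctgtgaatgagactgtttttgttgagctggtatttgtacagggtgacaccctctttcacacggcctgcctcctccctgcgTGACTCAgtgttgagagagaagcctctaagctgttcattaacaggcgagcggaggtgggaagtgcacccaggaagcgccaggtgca
Dmkn, which encodes the epidermal protein dermokine, chr7:30776155-30776454, plus strand: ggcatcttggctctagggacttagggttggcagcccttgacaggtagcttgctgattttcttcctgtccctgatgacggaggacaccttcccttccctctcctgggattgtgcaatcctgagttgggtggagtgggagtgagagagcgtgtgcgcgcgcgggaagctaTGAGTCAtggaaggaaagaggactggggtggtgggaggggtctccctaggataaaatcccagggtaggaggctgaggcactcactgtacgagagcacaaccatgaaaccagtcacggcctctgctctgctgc
Sbsn, which encodes suprabasin, chr7:30751221-30751520, plus strand: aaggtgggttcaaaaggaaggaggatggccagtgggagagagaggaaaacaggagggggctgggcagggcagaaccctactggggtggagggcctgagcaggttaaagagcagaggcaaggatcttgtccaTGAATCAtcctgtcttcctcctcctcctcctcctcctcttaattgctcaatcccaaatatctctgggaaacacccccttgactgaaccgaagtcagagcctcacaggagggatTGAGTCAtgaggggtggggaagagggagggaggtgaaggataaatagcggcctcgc
Il1rn, which encodes the interleukin 1 receptor antagonist, chr2:24336610-24336909, plus strand: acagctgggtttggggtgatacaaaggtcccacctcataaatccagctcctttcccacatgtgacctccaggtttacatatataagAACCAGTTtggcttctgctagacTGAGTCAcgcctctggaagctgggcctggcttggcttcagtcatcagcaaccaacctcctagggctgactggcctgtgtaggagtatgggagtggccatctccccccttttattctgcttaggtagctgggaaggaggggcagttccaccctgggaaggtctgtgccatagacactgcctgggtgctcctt
Itsn1, which encodes the endocytic scaffold intersectin 1, chr16:91729121-91729420, plus strand: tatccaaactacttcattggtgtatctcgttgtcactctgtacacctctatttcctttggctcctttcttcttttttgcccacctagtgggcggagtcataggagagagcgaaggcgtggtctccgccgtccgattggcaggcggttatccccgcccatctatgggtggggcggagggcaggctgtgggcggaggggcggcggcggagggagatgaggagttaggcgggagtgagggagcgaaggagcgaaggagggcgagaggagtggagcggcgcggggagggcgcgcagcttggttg
Smad6, which encodes an inhibitory Smad, chr9:64022010-64022309, minus strand: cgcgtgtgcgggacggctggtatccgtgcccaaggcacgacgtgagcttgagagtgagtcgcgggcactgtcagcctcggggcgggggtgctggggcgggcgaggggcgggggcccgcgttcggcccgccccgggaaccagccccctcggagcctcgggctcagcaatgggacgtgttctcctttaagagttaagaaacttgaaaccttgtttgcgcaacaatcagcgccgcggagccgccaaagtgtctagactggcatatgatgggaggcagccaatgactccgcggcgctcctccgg

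In these windows the AP-1 letters were found at position 215 in Scel, 169 in Dmkn, 132 and 245 in Sbsn and 110 in Il1rn, counted from the first base printed. The GRHL letters were found at position 87 in Il1rn. The windows of Itsn1 and Smad6 held neither. The numbers of CpG were 9 in Scel, 8 in Dmkn, 3 in Sbsn and 1 in Il1rn, against 23 in Itsn1 and 31 in Smad6. A match describes letters only, and does not show that a factor was bound.

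Regions called only in the immobilized library lay at the weaker end of the strong regions. Their median score was 14.6 (quartiles 13.1 and 17.5), against 28.9 (18.1 and 52.9) for the 24793 strong immobilized regions with a summit within 500 bp in both other lists. The score is the authors' own value for each peak, on a −log10 scale of significance. Of the 1853 regions, 28 ranked among the 10000 best immobilized summits and 1475 ranked from 20001 to 30000. All but 4 regions held a single summit.

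They were split by distance to the nearest summit of the other lists. At 197 regions (10.6%) another list had a summit just outside the limit, over 500 and up to 1000 bp away, and 57 of these (28.9%, 22.7 to 35.8) had the start or end of a protein-coding gene within 1 kb. At the remaining 1656 regions the nearest summit of either list was farther, and 95 (5.74%, 4.67 to 6.97) lay near a gene end. Of the 40 regions with a score of 30 or more, 34 had another summit within 1 kb. Of the 50 highest-scoring regions, 41 had another list's summit within 1 kb and 22 a gene end within 1 kb, against 156 and 130 of the remaining 1803. None of those 50 was nearest to a gene of the epithelial lists described below, against 44 of the remaining 1803. Only summits were analysed here, so whether a peak of another library covered these positions could not be seen.

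**Figure D1:**
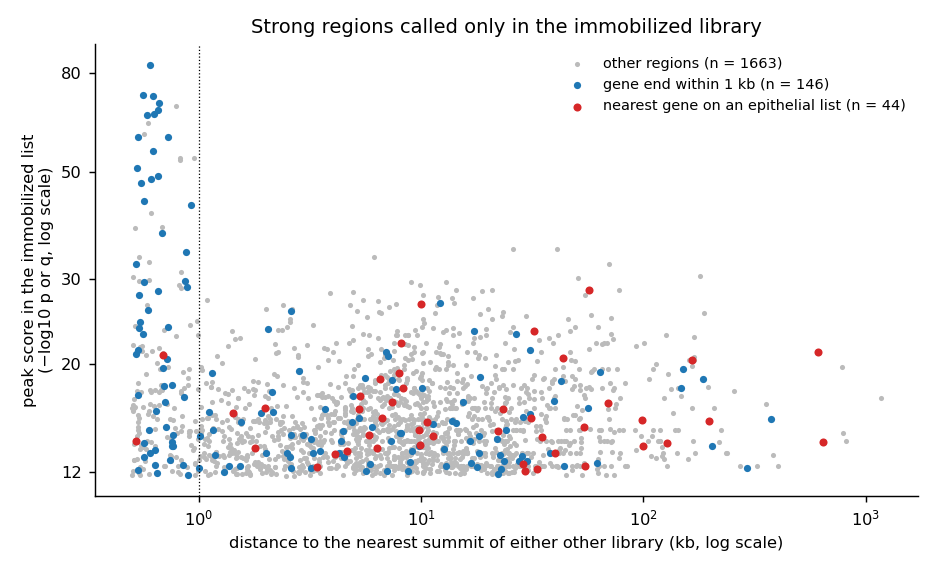
Each point is 1 of the 1853 regions, by its distance to the nearest summit of the non-immobilized or day 0 list (kb, log scale) and its peak score (log scale). Scores above 50 are all left of the dotted line at 1 kb, and the 44 regions nearest to genes of the epithelial lists lie mostly to its right.

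The highest-scoring regions included several gene starts. The highest of all, at chr12:118301854-118302354 with a score of 83.25, lay 664 bp from the start of Sp4, which encodes a transcription factor, and the nearest non-immobilized and day 0 summits were 604 and 611 bp away. At Itsn1 the summit lay 37 bp from the start in the gene table with a score of 72.12, and the other lists had summits 572 and 562 bp away. At Lamtor2, which encodes a lysosomal scaffold protein, the score was 69.26 and the distances were 660 and 667 bp. At Smad6 they were 42.59, 947 and 926 bp. In each of these both other lists had a summit within 1 kb of the immobilized one.

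The highest score was 83.2 where another list's summit lay 501 to 1000 bp away and 34.6 where it lay farther. Beyond 1 kb the median score did not fall with distance. It was 14.0 at 1001 to 2000 bp, 14.5 at 10001 to 50000 bp and 15.3 beyond 50000 bp, against 16.5 at 501 to 1000 bp. Of the regions more than 10 kb away, the best was at chr12:90781463-90781963 (34.61), 42675 bp from the start of the deiodinase gene Dio2. The next was at chr7:82017974-82018474 (34.56), 25925 bp from the start of Bnc1. Bnc1 encodes basonuclin 1, a zinc finger protein of basal keratinocytes, and its region lay 25894 bp from the nearest non-immobilized and 25874 bp from the nearest day 0 summit. Over all 1853 regions the median distance was 10277 bp to the non-immobilized list and 10341 bp to the day 0 list, and 784 regions (42.3%) had no summit of either list within 10 kb.

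At the limits of the rule the values ran on without a step. The lowest-scoring regions taken had scores of 11.78, 11.78 and 11.79, and the next summits below rank 30000 that met the distance rule had 11.77, 11.76 and 11.76. The regions closest to the 500 bp limit had another summit 501, 503 and 504 bp away, and strong summits just inside it had one at 500, 500 and 499 bp. In the first 100 bp beyond the limit 78 summits were taken, and in the last 100 bp within it 113 were left out.

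Most of the regions lay away from gene ends. Within 1 kb of a gene's start or end were 152 of 1853 (8.20%, 6.99 to 9.55), against 244 of 2239 (10.9%, 9.64 to 12.3) of the strong immobilized regions shared with the non-immobilized list alone, 140 of 999 (14.0%, 11.9 to 16.3) of those shared with day 0 alone and 10029 of 24793 (40.5%, 39.8 to 41.1) of those in all 3 libraries. Where the strand was known, the near end was the gene start at 100 of 120 regions (83.3%), against 95.1% of all strong immobilized regions. Inside a gene were 45.4% (43.1 to 47.7) of the regions called only in the immobilized library, against 54.9%, 52.4% and 54.7% in the same order of the other sets. Farther than 50 kb from every gene end were 28.2% (26.1 to 30.3), against 24.0%, 25.6% and 14.5%. Of the regions that the same rule gave for the other libraries, 22.6% (19.6 to 25.8) of the non-immobilized-only and 11.5% (9.81 to 13.4) of the day 0-only regions lay within 1 kb of a gene's start or end, and 21.1% and 31.0% lay farther than 50 kb. The 4 sets of strong immobilized regions differed in score, so they were also compared among summits ranked 20001 to 30000 alone. There, 6.71% (5.49 to 8.11) of the immobilized-only regions lay within 1 kb of a gene end, against 8.81% (7.39 to 10.4), 9.11% (7.19 to 11.4) and 14.3% (13.4 to 15.2) of the other sets in the order above. The intervals of the first 3 sets overlapped. Inside a gene were 45.9% (43.3 to 48.5), against 56.6%, 51.7% and 55.6%. Of those within 1 kb with a known strand, the near end was the gene start at 74.3% (62.8 to 83.8), against 79.6%, 77.8% and 82.3%. Farther than 50 kb from gene ends were 28.3% (26.1 to 30.7), against 24.7% (22.5 to 27.0), 27.1% (24.0 to 30.4) and 23.1% (22.1 to 24.2), a smaller gap than among all strong regions.

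**Figure D2:**
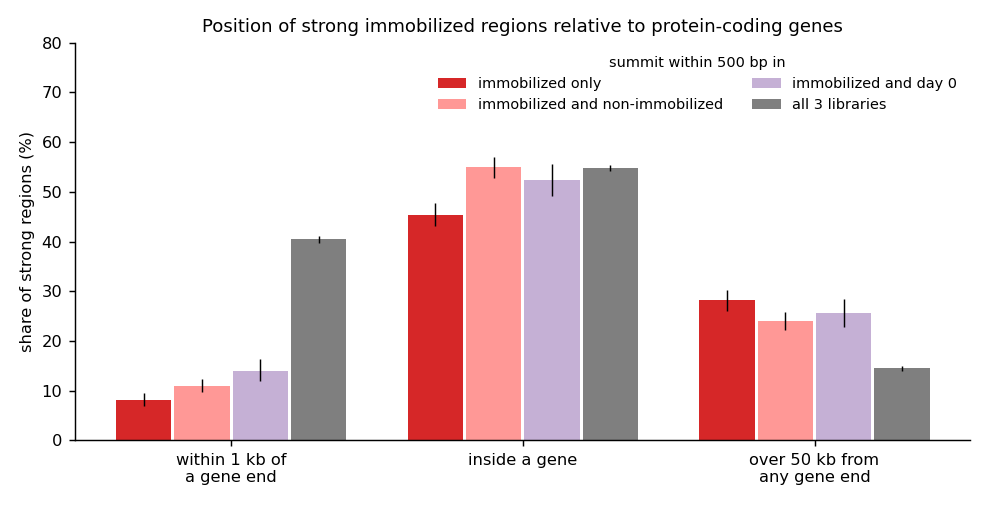
Bars give the share (%) of strong immobilized regions near a gene end, inside a gene and far from genes, by which other lists held a summit within 500 bp, with exact 95% binomial intervals. The immobilized-only bar is the lowest in the first 2 groups (8.20% and 45.4%) and the highest in the third (28.2%).

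Assignment to the closest protein-coding gene, by either gene end and up to 50 kb away, placed 1331 of the 1853 regions at 1152 genes. Those are 8.87% of the 12981 genes that had any strong immobilized region. Most of them (996) had 1 region, 138 had 2 and 18 had 3 or more. The genes with the most were Ets2 with 6, and Pkp1 and Cdcp1 with 4 each. Next by score came genes with 3 each: Casz1, Dsc3, Sppl3, Tmprss2, Tiam1, Il1b, Plxdc1, Tcim, Acsl1, Tiprl, Tns4 and Celsr1. Several of these are known from epithelia: Pkp1 and Dsc3 encode desmosome proteins, Cdcp1 and Celsr1 encode surface proteins of epithelial cells, and Tmprss2 encodes a serine protease of epithelial surfaces.

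Genes of epidermal and other epithelial cells had the largest shares among the 24 gene lists under this assignment. When regions were given to the gene that holds the summit, the wound response list (19.6%) equalled the epidermal list (19.6%). Of the 135 strong immobilized regions near genes of the 2 epithelial lists, 44 (32.6%, 24.8 to 41.2) were called only in the immobilized library, against 6.20% of all strong regions and 5.18% (4.91 to 5.46) of those near other genes. These 44 made up 2.37% (1.73 to 3.17) of the 1853 regions. By the same rule turned round, 1 of 740 non-immobilized-only regions (0.135%) and 3 of 1240 day 0-only regions (0.242%) lay near a gene of these lists. Of the strong immobilized regions in all 3 libraries, 57 of 24793 (0.230%) did. Of the 44 regions, 42 had the next summit of another list more than 1 kb away. In the whole lists, the 52 epidermal genes had 249, 91 and 81 summits in the immobilized, non-immobilized and day 0 lists, at 50, 36 and 28 genes. The 24 epithelial transcription factor genes had 144, 50 and 50 summits, at 23, 20 and 19 genes. Among the 47912 best summits of each list the counts were 168, 91 and 72 for the epidermal and 91, 50 and 46 for the transcription factor genes. Krt5, Krt14, Krt17, Dsc3, Dsg3 and Tgm1 were the nearest gene of no summit in the non-immobilized or the day 0 list. Krt6b and Flg were that of none in any list. Other lists could still have a summit in the neighbourhood. From a Krt17 region the nearest non-immobilized and day 0 summits lay 22105 and 26351 bp away. The part that epidermal or other epithelial cells had in these regions was not tested, and in bulk samples more cells of a type and more open DNA per cell cannot be told apart.

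**Figure D3:**
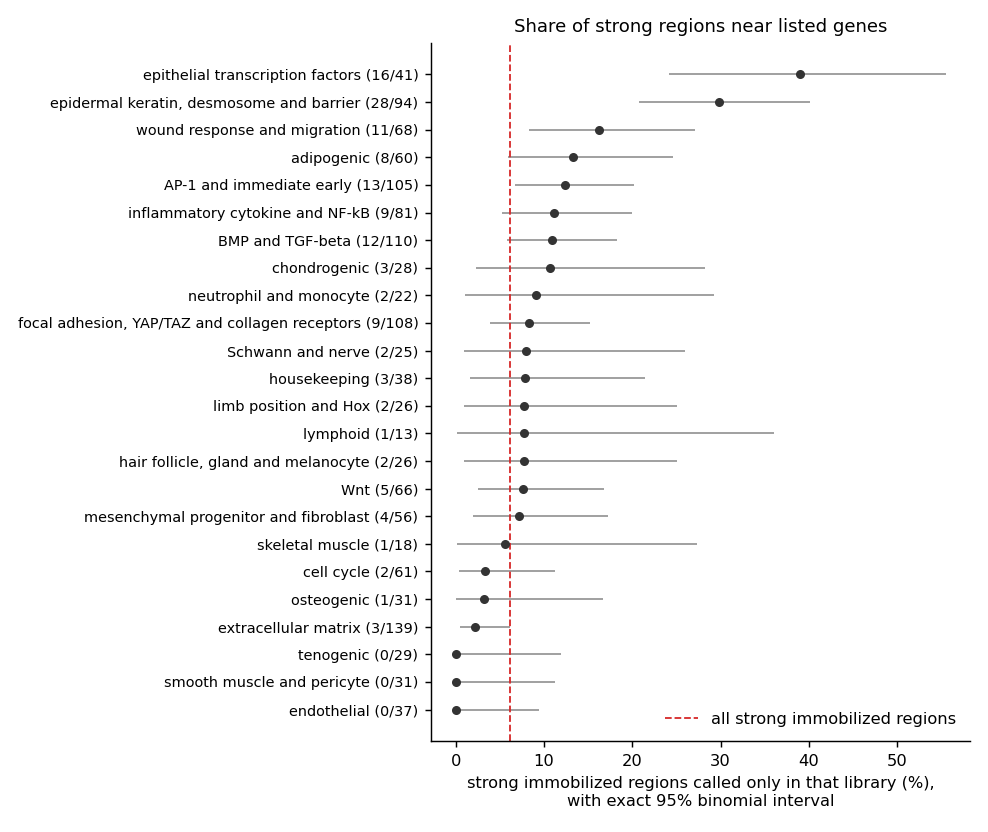
Points give, for each of 24 gene lists, the share (%) of strong immobilized regions near its genes that were called only in the immobilized library, with exact 95% binomial intervals and the counts in brackets. The dashed line is the share over all strong immobilized regions, 6.20%, including those farther than 50 kb from any gene end. The epithelial transcription factor list (39.0%) and the epidermal list (29.8%) lie farthest to its right.

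Among the epithelial transcription factors, 10 of 24 genes had a region of this kind, and 16 of the list's 41 strong regions (39.0%, 24.2 to 55.5) were called only in the immobilized library. Elf3, an ETS factor of epithelia, had 2, and the stronger, at chr1:135248279-135248779, had a score of 26.64. Grhl3, a factor of epidermal barrier formation, had 1 at chr4:135623149-135623649 (23.48), 49767 bp before the gene start, and 12 summits in the whole immobilized list, against 1 each in the non-immobilized and day 0 lists. Ehf, another epithelial ETS factor, had 2 regions (20.39 and 15.27) and 11 summits in the immobilized list, against 0 in either other list, whose nearest summits lay 165690 and 165664 bp from the stronger region. Tfap2b, which encodes an AP-2 factor, had 2 (21.25 and 13.79) and 5 summits, against 0 and 0. Zfp750, a p63 target that drives keratinocyte differentiation, had 2 (22.12 and 16.70), both inside the neighbouring gene Tbcd. Gata3 had 2 (20.60 and 14.63) and Grhl2 2 (14.13 and 13.09). Trp63, which encodes p63, had 1 inside the gene at chr16:25849791-25850291 (14.21), with 7 summits in the immobilized list, against 3 in the non-immobilized list and 2 at day 0.

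Genes of the epidermal list, of keratins, desmosomes and the barrier, had 28 such regions at 18 of 52 genes, out of 94 strong regions (29.8%, 20.8 to 40.1). Krt14, a keratin of basal epidermal cells, had 1 region 1012 bp before its start at chr11:100208272-100208772 (16.67). Krt16 and Krt17, keratins of wounded and hair-bearing skin, lie in the same keratin cluster and had 1 and 2, with scores of 12.45, 16.19 and 14.57. The nearest non-immobilized and day 0 summits lay 69464 and 73710 bp from the Krt14 region. These keratin genes are close relatives in sequence, and how reads were placed among them is not known here. Krt5, the partner of keratin 14, had 3 summits in the immobilized list and 0 in the others, none of them strong. Dsc3, a desmosomal cadherin gene, had 3 regions, its only strong ones. The best (28.48) lay 159 bp from a gene end and 555908 and 56842 bp from the nearest non-immobilized and day 0 summits. Pkp1, which encodes plakophilin 1, had 4 of 8 strong regions, with scores from 12.29 to 18.61. Dsp, which encodes desmoplakin, had 2 of 5, Perp, a desmosome gene under p63, 2 of 3, and the tight junction gene Cldn1 2 of 3. Cdh1, which encodes E-cadherin, had 1 of 3 inside the gene (17.24), with 12 summits in the immobilized list, against 2 and 1. Aqp3, which encodes a water and glycerol channel of the epidermis, had 2 of 4, with 8 summits, against 2 and 0.

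**Figure D4:**
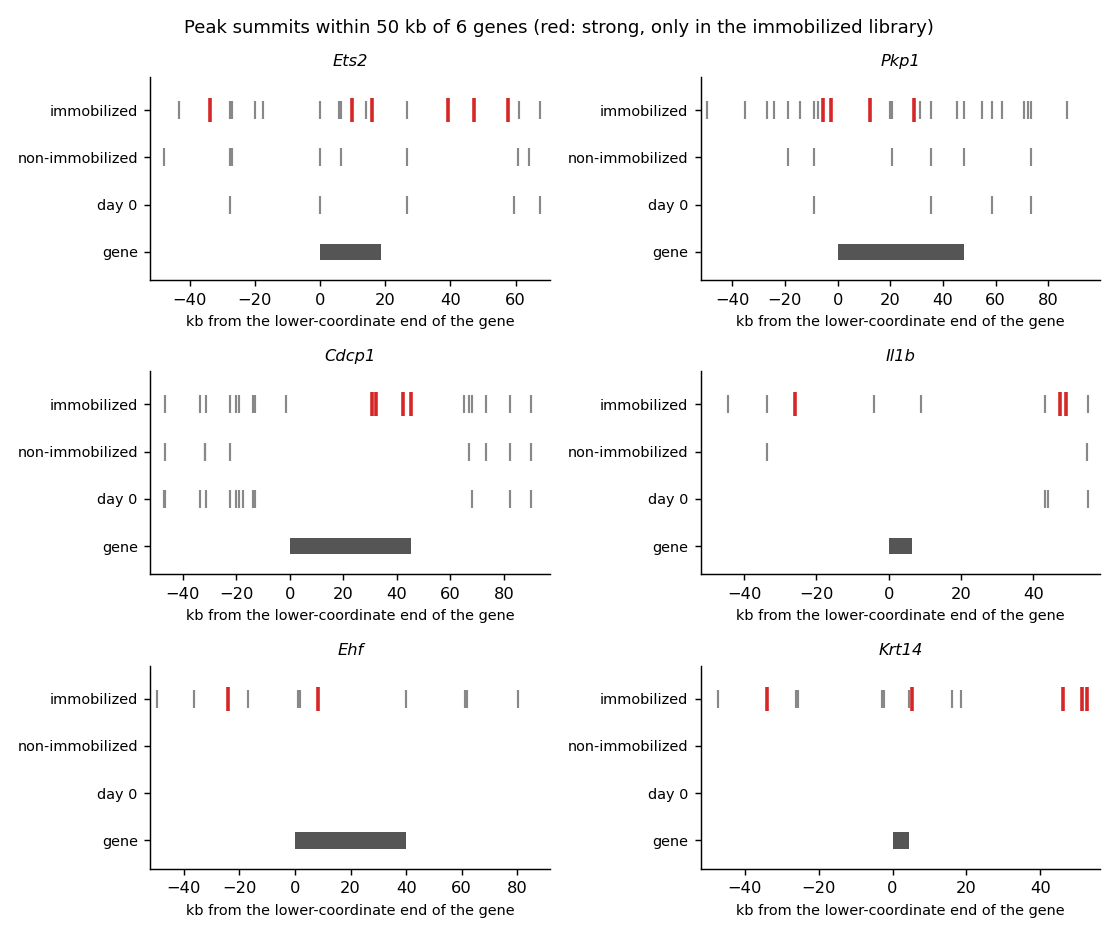
Ticks mark every peak summit within 50 kb of 6 genes in the immobilized, non-immobilized and day 0 lists, by distance in kb from the lower-coordinate end of the gene (grey bar). Red ticks are the strong regions called only in the immobilized library. Around Ehf the immobilized list has 11 summits and around Krt14 13, and both other lists have 0.

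Of 919 autosomal hairpins, 319 had a strong immobilized region within 5 kb and 19 (5.96%) had one of this set, at 16 regions. This is a share of hairpins, whereas the 6.20% of all strong regions is a share of regions. The share of genes with a strong region, assigned up to 50 kb away, was 8.87%. Among the 19 were Mir29a, Mir29b-1, Mirlet7e and Mir125a, and 3 microRNAs known from epithelia, described here after their values were seen. Mir200c and Mir141, neighbours on chromosome 6 that restrain the change from epithelial to mesenchymal state, lay 501 and 906 bp from the summit of chr6:124718641-124719141 (21.48), whose nearest non-immobilized and day 0 summits were 6638 and 6646 bp away. Mir205, a microRNA of stratified epithelia, lay 2708 bp from the summit of chr1:193509988-193510488 (14.97), with other summits 3842 and 6114 bp away. Their mature sequences are given with the seed, bases 2 to 8, in capitals, from RefSeq on GRCm38.p6. The seeds of miR-200c-3p and miR-141-3p belong to different seed groups, so the 3 sequences shown have 3 seeds.
mmu-miR-205-5p: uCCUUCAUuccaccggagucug
mmu-miR-200c-3p: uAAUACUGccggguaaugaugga
mmu-miR-141-3p: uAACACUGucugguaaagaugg

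Accessibility near a hairpin does not give the level of the microRNA.

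At 60 genes the summit of a region fell inside the promoter window, 250 bases before to 50 after a RefSeq transcript start. Distances in this paragraph are from that start, which can differ from the gene table's. At 18 of them another list had a summit within 1 kb, as at Itsn1 and Smad6, and at 42 it had none. Genes of the second kind, named here after their values were seen, include several of the upper epidermis. The Dmkn summit lay 87 bp before a transcript start, inside the gene and 4748 bp from its nearest end in the gene table, with a score of 27.36, and the nearest non-immobilized and day 0 summits were 17100 and 17344 bp away. At Scel the summit lay 39 bp before a transcript start and 241 bp from the start in the gene table (26.74; 12795 and 12190 bp). At Sbsn it lay 81 bp before the start (16.81; 7828 and 7584 bp). Lypd3, a surface protein gene of suprabasal keratinocytes, had a score of 18.52, and Il22ra1, which encodes a receptor chain for interleukin 22 on epithelial cells, had 18.86. Acer1, an epidermal ceramidase gene, had 14.43 and Asprv1, which encodes a skin protease, 12.61. Il1rn, the receptor antagonist gene, had 15.78 at 79 bp before its start, with the nearest summits 30808 and 116630 bp away. Genes outside epithelia were also among the 42, such as Ccr1, a chemokine receptor of leukocytes (12.35), and the zinc finger factor Egr4 (12.48).

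Ets2, a widely expressed ETS factor that responds to growth factor signals, had the most regions of any gene. Of its 12 strong regions 6 were called only in the immobilized library, with scores of 21.02, 17.11, 12.59, 13.51, 14.18 and 12.26 from chr16:95668471-95668971 to chr16:95759947-95760447, and 2 of them lay inside the gene. Its whole-list counts were 18, 8 and 5 summits in the immobilized, non-immobilized and day 0 lists. Ets2 accounts for 6 of the 13 regions on the list of AP-1 and immediate early genes (13 of 105 strong regions, 12.4%, 6.76 to 20.2). Klf4 and Klf6, zinc finger factors induced early after stimulation, had 2 each, with scores from 15.43 to 18.69. Jun had 1 (17.45) with a non-immobilized summit 831 bp away. No region of this set was assigned to Fosl2 or to Bach1, although they had 5 and 7 strong regions.

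Genes of wound response and migration had 11 such regions of 68 strong ones (16.2%, 8.36 to 27.1). Tns4, which encodes the adhesion protein tensin 4, had 3 of 7, with scores from 13.56 to 15.73. Itgb6, an integrin chain of wounded epithelia, had 2 of 4 (14.85, with a non-immobilized summit 533 bp away, and 16.29), and Epgn, which encodes a ligand of the EGF receptor, had its only strong region (26.04) in the set. Inflammatory and NF-kB genes had 9 of 81 (11.1%). Il1b, which encodes interleukin 1 beta, had 3 of 4 strong regions, at 26037, 40809 and 42459 bp from its ends (14.54, 14.02 and 19.56). It was the nearest gene of 6 summits in the immobilized list, against 0 in the non-immobilized list and 2 at day 0. Within 50 kb of Il1b, whichever gene was nearest, the lists had 9, 2 and 3 summits. Il24, which encodes an epithelial cytokine, had 1 region (20.32), its only strong one, and Tnfaip3, a brake on NF-kB, 1 of 6 (17.04). Il1r2, a decoy receptor of interleukin 1, supplied both regions of the neutrophil and monocyte list (2 of 22, 9.09%). In the whole lists, the neutrophil and monocyte genes had 53, 29 and 32 summits and the lymphoid genes 41, 29 and 33. Among the 47912 best summits of each list the counts were 33, 29 and 28 and 28, 29 and 29. Their part in the inflammatory regions was not tested.

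Genes of BMP and TGF-beta signalling, which drives bone formation and scarring, had 12 of 110 strong regions in the set (10.9%, 5.77 to 18.3), at 10 of 33 genes. Smad3, a TGF-beta effector, had 2 of 12; the stronger at chr9:63737304-63737804 (25.69) lay inside the gene, 6500 and 8654 bp from the nearest non-immobilized and day 0 summits. Acvr1b, an activin receptor gene, had 2 of 7 (22.89 and 15.02), the stronger with a non-immobilized summit 791 bp away. Focal adhesion, YAP/TAZ and collagen receptor genes had 9 of 108 (8.33%, 3.88 to 15.2). Amotl2, a target and inhibitor of YAP, had 2 of 10 (18.57 and 15.16). Ddr2, a fibrillar collagen receptor, had 1 of 5 (12.35), and Ddr1 had 1 of 7 with a score of 30.23 but with other summits 504 and 519 bp away. Yap1 had 0 of 2. Wnt genes had 5 of 66 (7.58%, 2.51 to 16.8).

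Among lists for mesenchymal fates, the adipogenic list had 8 of 60 strong regions in the set (13.3%, 5.94 to 24.6). The interval holds the 6.20% of all strong regions but lies above the 5.18% of those near genes outside the epithelial lists. Acsl1, which encodes an enzyme that activates fatty acids, had 3 of 6 (13.86, 12.90 and 15.82) and 7 summits in the immobilized list, against 3 and 5. Lep, the leptin gene, had 2 of 6, 28849 and 28253 bp before its start (14.69 and 15.80). Cidec, a lipid droplet gene, had its only strong region in the set (16.73). Pparg, which drives fat cell differentiation, had 0 of 4. Chondrogenic genes had 3 of 28 (10.7%), 2 of them inside Sox5, and Sox9 had 0 of 2. Osteogenic genes had 1 of 31 (3.23%, 0.0816 to 16.7), at Tnfsf11, which encodes the osteoclast factor RANKL (20.17), and Runx2 had 0 of 1. Mesenchymal progenitor and fibroblast genes had 4 of 56 (7.14%, 1.98 to 17.3): 2 at Dpp4, a marker of fibroblast progenitors (23.01 and 18.34), 1 at Gli1 (37.17, with a day 0 summit 681 bp away) and 1 at Twist2 (12.63). Pdgfra had 0 of 2 and Prrx1 0 of 3.

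Extracellular matrix genes had 3 of 139 strong regions in the set (2.16%, 0.447 to 6.18), at Fbln1, Col15a1 and Mmp2. Theirs was the only list whose interval lay below 6.20%. That share, however, includes regions farther than 50 kb from any gene end, which no list could hold. Of strong regions near genes outside the epithelial lists, 5.18% were called only in the immobilized library, a share inside the extracellular matrix interval. Endothelial genes had 0 of 37 (up to 9.49%), smooth muscle and pericyte genes 0 of 31 (up to 11.2%) and tenogenic genes 0 of 29 (up to 11.9%). Skeletal muscle genes had 1 of 18 (5.56%), at Pax7, and Schwann and nerve genes 2 of 25, both at Mbp. The cell cycle list had 2 of 61 (3.28%), limb position and Hox genes 2 of 26 (7.69%), hair follicle, gland and melanocyte genes 2 of 26 (7.69%), lymphoid genes 1 of 13 (7.69%) and housekeeping genes 3 of 38 (7.89%). Lists whose interval lay above 6.20% were 4 of 24: both epithelial lists, the wound response list and the AP-1 list. The AP-1 list's share fell under other gene assignments, to 4.76% within 10 kb and 4.65% by the gene that holds the summit. Those assignments count other sets of strong regions, so 6.20% is not the share to set beside these values. With the 20000 best summits it was 2.67%. Only 378 regions were called there, so 6.20% is not the share to set beside it. The lists were chosen with earlier results of these data known, so the epithelial counts are not independent of them.

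The promoter table matched 16436 autosomal protein-coding genes with 20062 windows, of which 89, at 85 genes, overlapped a region of the set. In these windows the AP-1 letters occurred more often than in other promoters: in 20 of 89 (22.5%, 14.3 to 32.6), against 405 of 9598 windows overlapped by strong regions in all 3 libraries (4.22%, 3.83 to 4.64) and 1416 of all 20062 (7.06%, 6.71 to 7.42). Where the next summit of another list was beyond 1 kb the count was 17 of 61 (27.9%, 17.1 to 40.8), and where it was within 1 kb, 3 of 28 (10.7%, 2.27 to 28.2). CpG content moved with this: the median number of CpG per window was 7 in the 61 and 19 in the 28, against 23 in windows of regions in all 3 libraries and 14 over all windows. Among windows with fewer than 10 CpG the AP-1 letters were in 14 of 44 (31.8%, 18.6 to 47.6), against 88 of 729 (12.1%, 9.80 to 14.7) for regions in all 3 libraries and 974 of 8443 (11.5%, 10.9 to 12.2) for all windows. Besides the 4 genes printed above, windows with the letters belonged to Il22ra1, Elf1, Plet1, Vav3 and Ankrd22, among 19 genes in all. The windows of the epidermal genes Lypd3, Acer1 and Asprv1 lacked the letters. The window of Mfsd11 held them, although other summits lay 639 and 627 bp away.

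The other motifs searched had these shares. The SP/KLF letters GGGCGG were in 24 of the 61 windows (39.3%, 27.1 to 52.7) and 22 of the 28 (78.6%, 59.0 to 91.7), against 72.2% for regions in all 3 libraries and 47.0% of all windows. The ETS letters CCGGAAG were in 4 of 89 (4.49%, 1.24 to 11.1), against 20.8% and 11.9%. The GRHL letters were in 4 of 89 (4.49%, 1.24 to 11.1), at Ankrd22, Il1rn, Sfn and Tenm4, against 1.54% and 1.94%. The E-box CAGCTG was in 23.6% (15.2 to 33.8), against 14.3% and 15.6%, TEAD letters GGAATG in 14.6%, against 11.0% and 13.4%, and RUNX letters TGTGGT in 11.2%, against 10.9% and 14.8%. The C/EBP letters TTGCNNCAA were in 2.25%, against 1.31% and 1.76%, the SOX letters ACAATGG in 3.37%, against 144 of 9598 windows of regions in all 3 libraries and 2.87% of all windows, the NF-kB motif in 2.25%, against 1.63% and 1.65%, the CTCF letters CCACNAGG in 8.99%, against 5.34% and 5.15%, and the p53/p63 motif in 7.87%, against 6.25% and 7.32%. All were searched on both strands, matches of different motifs could overlap, and distal regions were not searched because no genome was used here.

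**Figure D5:**
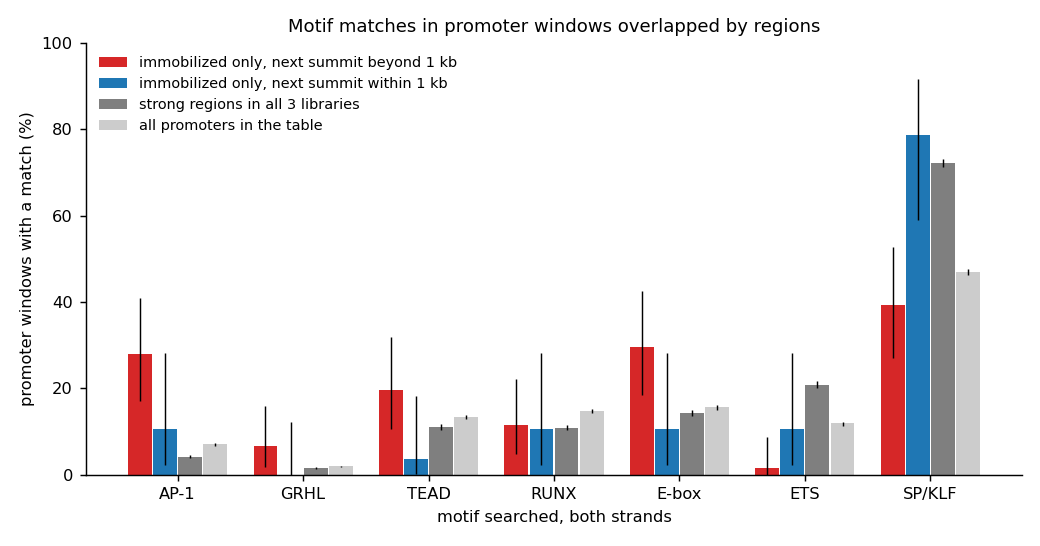
Bars give the share (%) of promoter windows with a match to 7 motifs, with exact 95% binomial intervals, for windows overlapped by immobilized-only regions with the next summit of another list beyond 1 kb (n = 61) or within 1 kb (n = 28), for windows of strong regions in all 3 libraries (n = 9598) and for all windows (n = 20062). AP-1 is at 27.9% in the first set and at 4.22% in the third.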

How the data were processed

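Omni-ATAC libraries of mesenchymal stem cells were used, 1 per group, per the labels. Alignment with Bowtie2 (2.3.4.1) to mm10 and peak calling with MACS2 (2.1.2) are read from the submitters' processing notes, which list tools without parameters. Read filters, any shift for the transposase and peak cutoffs are not stated there. The deposited lists give a 1 bp summit per peak, called per library, with a score read as −log10 of a p or q value; which of the 2 is not stated. The deposited run statistics give read counts, duplication as a fraction and alignment as a percent.

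Genes came from the RefSeq table of GRCm38.p6, in which 79.6% of autosomal protein-coding genes had a strand. The nearest of either gene end was used. Sequence features were limited to RefSeq promoters that overlapped a region, in place of the regions themselves. Positions count from 1. Groups came from the sample titles. Named genes were the 15 with the most regions, the nearest to the 10 best-scoring regions overall and near gene ends, up to 4 per list and a fixed set of 18; other genes named were chosen after their values were seen. The regions and the 24 lists (591 autosomal genes) were chosen with earlier results of these data known. Of the read pairs, trimmed pairs times alignment rate times the share not duplicated left an upper estimate of 75.3, 90.1 and 63.6 M aligned pairs (immobilized, non-immobilized and day 0). Region building was tested on simulated data. Alternatives changed the number of summits, the exclusion distance, the other lists, the width and the gene assignment. Software: numpy 2.4.6 and pandas 2.3.3 under Python 3.11.15, exact intervals from scipy 1.17.1, figures from matplotlib 3.10.9.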

Additional observations from a re-analysis of the deposited data

How the results depend on the processing

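The number of regions followed the rule: 378 with the 20000 best immobilized summits, 28 with 10000, 4664 with 40000, and 4139 where only the 30000 best summits of each other list excluded, against 1853. Other exclusion distances and widths kept it within 1.5 times. The share within 1 kb of a gene end (8.20%) was 14.0% with 20000 and 60.7% with 10000 summits, 14.4% with exclusion within 250 bp, 5.74% within 1000 bp and 5.67% within 2000 bp. The share inside a gene (45.4%) was 57.1% with 10000 and 48.4% with 40000 summits, 48.5% with exclusion within 250 bp and 50.3% with the 30000 best summits of the other lists. The epidermal list share (29.8%) was 10.5% with 20000 and 0% with 10000 summits, 58.5% with the 30000 best of the other lists and 19.6% where the gene that holds the summit was used. The epithelial transcription factor share (39.0%) was 0% with 10000 summits, where 6 strong regions were left, 58.5% with the 30000 best of the other lists and 24.0% within 10 kb. With 10000 summits the mesenchymal progenitor list had the largest share, 1 of 10 regions, and both epithelial lists had 0 of 6. The share of 6.20% over all strong regions belongs to the main rule only. It also moved where the number of summits or the other lists changed, as the counts of 378, 28 and 4139 regions show. List shares at those settings are therefore not comparable with 6.20%. Nor are those under other gene assignments, which count other sets of strong regions. The cause of the moves in list shares was not tested. Of 220 values for the other lists 50 moved out of their interval, and of 475 counts for named genes 105 moved by over 1.5 times. With 1 library per group no library could be left out. No paired analysis was possible because each group has 1 library and the result comes from no test.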

Other observations

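Of the 522 regions farther than 50 kb from any protein-coding gene end, 340 lay inside no gene. The highest-scoring, at chr4:97750962-97751462 (38.48), lay inside Nfia, which encodes a nuclear factor I protein, and had non-immobilized and day 0 summits 687 and 686 bp away. The next, at chr15:61913444-61913944 (32.20), lay 71647 bp from Myc, a growth regulator, and 69764 and 69783 bp from the nearest non-immobilized and day 0 summits. Others had Fgfr2, a fibroblast growth factor receptor gene (28.26), and Sox6, a cartilage factor (27.55), as the nearest gene, at 130224 and 265758 bp. These genes were named by score rank after the values were seen.

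Chromosome 16 had the largest share of strong immobilized regions called only in that library, 104 of 1060 (9.81%, 8.09 to 11.8), and chromosome 8 the smallest, 77 of 1598 (4.82%, 3.82 to 5.99). Chromosome 13 followed with 7.94% (6.54 to 9.53). Ets2, Tmprss2 and Tiam1 are all on chromosome 16. Chromosome 16 held 3.71% of all immobilized summits, against 3.45% of the non-immobilized and 3.44% of the day 0 summits. Of the 1853 regions, 171 (9.23%) lay within 10 kb of another and 738 within 100 kb, and the median distance to the nearest was 167749 bp. Whether they lay closer together than other strong regions was not tested. In 3 runs, 3 regions were linked by gaps of up to 10 kb, at Nhsl1, at Krt16 and Krt17 and at Tcim. The Tcim regions had another list's summit 501, 801 and 1690 bp away. With exclusion within 1000 bp Tcim kept 1 region, and within 2000 bp 0.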
